A study of Mus musculus with 8 samples.

Results

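The resting newborn cortical epithelial cells were the 2706 cells of the newborn (NB) cortical library that carried transcripts of the cortical genes Psmb11 or Prss16 and no transcript of the proliferation genes Mki67 or Top2a. They were 74.6% of the 3629 cells deposited for that library and 9.55% of the 28334 cells of the series. A cell was kept with at most 5% of its unique molecular identifiers (UMIs, each standing for 1 captured RNA molecule) on mitochondrial genes, at most 5000 genes, at least 1 UMI of Psmb11 and Prss16 together, and fewer than 6 UMIs summed over the 8 thymocyte genes Cd3d, Cd3e, Cd3g, Cd8a, Cd8b1, Rag1, Dntt and Lck. The cells were thus selected on those measured values, so the presence of Psmb11 and Prss16, the absence of Mki67 and Top2a and the low thymocyte genes are descriptions and not results. Of the 3605 cells within the limits on mitochondrial UMIs and genes, 809 held Mki67 or Top2a, 8 others held neither Psmb11 nor Prss16, and a further 82 reached the limit on thymocyte genes. Near the thresholds, 15 members held a single UMI of Psmb11 or Prss16 against 7 cells just outside with none, and 9 members had a thymocyte sum of 5 against 19 cells just outside with 6 or 7.

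The series profiled single thymic epithelial cells (TEC) of mice at fetal, newborn and adult stages with droplet 3′ RNA sequencing, in 8 libraries. The cells compared here came from wild type (WT) mice of the strain C57 B6 (CD45.2). Most were sorted as DAPI-, EpCAM+, CD45-, Ly51+ and UEA-1-, the surface profile of cortical TEC (cTEC). Medullary TEC of adults, also in 2 replicates, are set against them below and were sorted as EpCAM+, CD45-, Ly51- and UEA-1+. Libraries of cTEC were made at E15.5, at E17.5, from newborns in the first days after birth and, in 2 replicates, from young adults. Newborn and adult thymi were released with Liberase and DNase and enriched on Percoll, whereas embryonic thymi were released with trypsin, so that fetal against later stage and the dissociation cannot be told apart in these data. The libraries came in 2 data sets. The NB, E15.5 and the first adult libraries were counted on a gene list of 27998 genes and the E17.5 and second adult libraries on a list of 31053, and comparisons used the 27514 genes in both lists.

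Cortical epithelial cells form the outer region of the thymus, where they attract lymphoid progenitors, drive them towards the T cell lineage and present the self peptides on which immature thymocytes are positively selected. The transcription factor Foxn1 sets up their programme, which includes chemokines, Notch ligands, and a dedicated set of proteases and proteasome subunits that make the selecting peptides. Interferon signalling acts on GTPases, antigen presentation genes and chemokines in nearly all cell types.

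Members held a median of 5870.5 UMIs (range 2322 to 20285) and 2337 genes, with 1.55% of UMIs on mitochondrial genes. The same rule kept 2001 cells at E15.5, 5370 at E17.5, 268 in the first and 341 in the second adult replicate, with median UMIs between 4493 and 9826. With 1 NB library there was no replicate of the stage, so no test was made and no p-value is given, and the intervals below are 95% exact intervals that cover counting error only. Barcodes of 82 members also occurred in another library of the series. Of the members, 1927 held Xist and no Y-linked transcript, 355 held a Y-linked transcript and no Xist, and 65 (2.40%) held both, with a median of 10619 UMIs, so animals of both sexes were in the library. Scrublet, a caller of doublets, marked 0 of the 3629 cells and therefore had not worked, and doublets were removed only as far as the limits on genes and thymocyte UMIs did so.

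The label was then read on cortical genes that the rule did not use. After every cell was thinned to 3000 UMIs, which 2613 members could supply, a UMI of Tbata was found in 90.6% and of Ccl25 in 92.3% of members, and without thinning in 93.7% and 94.7%. In the medullary epithelial cells of the 2 adult replicates Tbata was found in 39.2% and 56.8% and Ccl25 in 12.4% and 22.9% of cells at the same depth, from median depths of 9500.5 and 11386 UMIs. Psmb11 and Prss16, of which the rule asked for 1 UMI together, were found in 90.5% (89.3 to 91.6%) and 99.3% of members (95.2% and 99.6% without thinning). They were found in 0.571% and 1.61% (Psmb11) and in 6.98% and 7.94% (Prss16) of the medullary cells, which were not selected on them, so this contrast describes the selection. Transcripts of medullary markers were not absent, though how far they came from ambient RNA was not tested. Their list of 13 genes summed to 430 CPM, led by Ccl21a at 191 CPM, and at 3000 UMIs Ccl21a was found in 10.4%, Krt5 in 12.6% and Krt14 in 8.30% of members, against 73.7%, 50.3% and 65.8% of medullary cells in the first adult replicate. The medullary regulator Aire was found in 1 member, a share of up to 0.213%. The thymocyte genes of the rule were capped by it, so that 2457 members (90.8%) with none of them describe the selection. Of 14 other thymocyte genes 11 were in the shared list, and they summed to 30.0 CPM (UMIs scaled to a fixed total over the shared genes, as counts per 1e6), led by Satb1 at 13.1 CPM. Of 9 myeloid markers the summed level was 2.88 CPM, and mesenchymal markers summed to 25.1 CPM, led by Dcn at 23.2 CPM.

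Cell cycle genes that the rule did not read were lower than in the cells it left out for Mki67 or Top2a. Cells excluded only for Mki67 or Top2a numbered 751 and had a median of 6996 UMIs. All 42 S phase genes measured were lower in the resting cells, with a summed level of 719 CPM against 1954 CPM. All 52 G2M genes were lower as well, at 1534 CPM against 7473 CPM. These genes go with the pair that chose the cells, so the contrast describes the selection. Against the resting cells of the other 4 libraries the NB cells were not low, with an S sum within their range (437 to 829 CPM) and a G2M sum above all of them (1235 to 1497 CPM). A limit on the S and G2M lists in place of Mki67 and Top2a kept only 162 cells.

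The label genes of the cortical programme differed less than 2-fold between NB cells and each other library, except that Prss16 was at 1.05 on the log2 scale over the first adult replicate under TMM scaling. Psmb11, a proteasome subunit characteristic of cTEC, was at 1636 CPM in E15.5 cells, 1592 in E17.5 cells, 1449.8 in NB cells (1432 to 1468), and 814 and 1639 in the adult replicates. The NB value was below both fetal values and between the adult ones. Prss16, a serine protease of the class II pathway, was at 2710.4, 3888, 3979 (NB), 2150.0 and 3689.8 CPM. Ctsl, the cathepsin that trims class II peptides in cTEC, was at 5066, 14044, 14327 (NB), 8716 and 11543 CPM, which put E15.5 apart from all later libraries. Tbata, named for its expression in thymus, brain and testis, was at 2750.2, 6173, 5069.7 (NB), 5183 and 8679.8 CPM. Ccl25, a chemokine that draws progenitors and thymocytes through Ccr9, was at 2531, 2619, 4461 (NB), 3105 and 4742 CPM. For Tbata and Ccl25 the NB cells lay within the range of the other libraries, and the adult replicates differed from each other by 0.74 and 0.61 on the log2 scale. Ligands for thymocytes were next. Of 10 such genes measured, 1 (Cd274, below) was 2-fold higher than in both fetal libraries and 0 differed 2-fold from both adult replicates. Over all genes tested those shares were 3.81% higher than both fetal libraries, and 1.63% higher and 3.01% lower than both adult replicates, so the counts of this list are near the background and are no result about it. Cxcl12, a chemokine that guides progenitors in the cortex, was at 687, 1005, 891 (NB), 832 and 1858 CPM. Dll4, the Notch ligand that commits progenitors to the T lineage, was at 79.7, 52.8, 54.9 (NB), 24.2 and 59.1 CPM, so NB cells were close to E17.5. Kitl, a growth factor for progenitors, was at 77.3, 50.04, 81.7 (NB), 60.8 and 84.3 CPM. Foxn1 was at 154, 117, 102 (NB), 117 and 89.6 CPM. Il7, the cytokine for early thymocytes, was at 374, 316, 287 (NB), 166 and 193 CPM, so the NB value lay between fetal and adult ones.

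**Figure D1:**
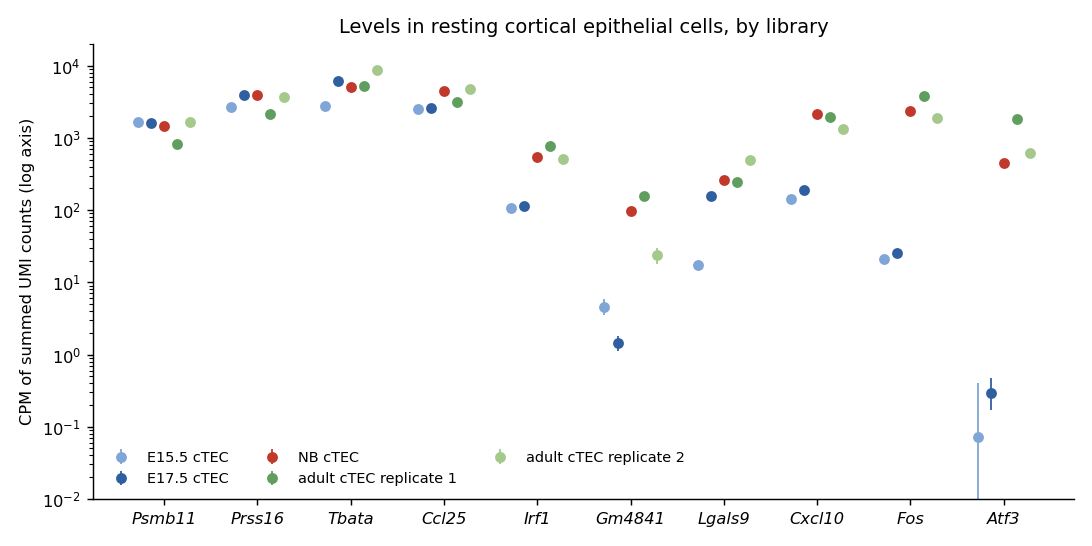
Levels of 10 genes in resting cortical epithelial cells of 5 libraries, as CPM of summed UMI counts on a log axis, with 95% exact Poisson intervals as bars. Irf1, Gm4841, Cxcl10, Fos and Atf3 in NB cells were above both fetal libraries, with Irf1, Gm4841 and Fos between the adult replicates (Irf1 below both under TMM scaling), Cxcl10 above and Atf3 below both, whereas Psmb11 and Prss16 differed little from E17.5.

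Irf1, Gm4841 and Lgals9 were chosen with earlier results of these data known, so their levels in NB cells are descriptions and not results. Irf1, a transcription factor induced by interferons and by inflammatory signals, was at 108 CPM in E15.5 cells, 112 in E17.5 cells, 548 in NB cells (538 to 559.6), and 784 and 511 in the adult replicates. The NB level was within the adult range, though under TMM scaling its log2 ratio was -0.34 over the first and -0.03 over the second adult replicate, below both. It was above both fetal libraries by 2.25 and 2.19 on the log2 scale (of CPM + 10, as for all ratios here). Gm4841, a gene of the interferon-inducible GTPase family, was at 4.56, 1.42, 97.4 (NB, 92.8 to 102), 157 and 23.6 CPM. The adult replicates differed by 2.32 on the log2 scale for this gene, more than the distance of NB cells from either of them. Lgals9, which encodes galectin-9, was at 17.51, 157, 265 (NB, 257 to 272), 244 and 502 CPM. Its step lay between E15.5 and E17.5, with a log2 ratio of NB cells over E17.5 of only 0.71.

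Counted over all genes at 50 CPM or more in either library, 121 of 3173 genes (3.81%) were at least 2-fold higher in NB cells than in both fetal libraries and 27 (0.851%) were 2-fold lower in NB cells. Of the 27 symbols of the type II interferon list 16 passed this filter, and 8 of those passed through the NB cells alone, so that they had to differ and their count supports nothing. All 8 were called (Gm4841, Socs1, Gbp2, Gbp3, Gbp7, Igtp, Irgm1 and Gm4951). Of the other 8, which reached 50 CPM in a fetal library too, 3 were called (Irf1, Cxcl10 and Iigp1) and 0 were lower. The median log2 ratio of all genes was 0.05 over E15.5 and 0.30 over E17.5. Cxcl10, a chemokine for activated T cells, was at 141, 192, 2169 (NB), 1963 and 1347 CPM. Socs1, the inhibitor of Jak signalling, was at 14.2, 15.1, 114 (NB), 182 and 180.3 CPM. Of 12 type I interferon genes at 50 CPM or more in a fetal library 4 were higher (Irf7, Ifit1, Ifi27l2a and Xaf1), and 3 of 5 that passed through NB cells alone were (Ifit3, Rsad2 and Rtp4). Under TMM scaling 2 of those 12 were called (Ifit1 and Ifi27l2a). Ifi27l2a was at 42.8, 741, 2148 (NB), 2597 and 2635 CPM.

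Antigen presentation genes differed by class and stage. Of 8 genes of class I presentation at 50 CPM or more in a fetal library, 4 were at least 2-fold higher than in both fetal libraries (B2m, H2-K1, H2-D1 and Tap1), and both genes that passed through NB cells alone were (H2-T23 and Tap2). Under TMM scaling 2 of those 8 were called (H2-K1 and H2-D1). B2m and Tap1, at 1.05 and 1.06 on the log2 scale over E17.5, were not. B2m, the invariant class I chain, was at 651, 1017, 2118 (NB), 5808 and 3545 CPM, so the NB cells stood between fetal and adult cells. The inducible proteasome subunit Psmb8, which passed through NB cells alone over the fetal libraries, followed the same order at 4.56, 7.15, 69.0 (NB), 288 and 147 CPM. The inducible subunits Psmb9 and Psmb10 did not follow it. On the log2 scale NB cells were above the adult replicates by 0.37 and 0.03 for Psmb9 and by 0.99 and 0.22 for Psmb10. Genes of class II presentation differed from E15.5 only, with 8 of 8 at least 2-fold higher over E15.5 (H2-Oa having passed through NB cells alone) and 0 of 9 over E17.5, where 6.13% and 7.52% of all genes tested were. Cd74, the invariant chain of class II, was at 4171, 7109 (E17.5), 9062 (NB), 13507 and 14123 CPM. Of 19 genes of cortical function, 1 was 2-fold higher than in both fetal libraries, near the 3.81% of all genes. This was Cd274, the ligand of PD-1, at 71.2, 57.2, 217 (NB), 332 and 183 CPM.

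Many immediate-early genes, which respond quickly to many stimuli, tissue dissociation among them, were also higher in NB than in fetal cells. Of 10 genes of the dissociation stress list at 50 CPM or more in a fetal library, 6 (Jun, Junb, Ier2, Zfp36, Btg2 and Socs3) were at least 2-fold higher than in both, where 3.81% of all genes tested were. A further 8, Fos and Atf3 among them, passed through NB cells alone and were called. Jund went the other way, at -2.20 on the log2 scale over E17.5. Against both adult replicates 3 of 21 genes of the list (Jund, Klf2 and Klf4) were 2-fold lower, where 3.01% of all genes were, and 0 were higher. Fos was at 21.1, 25.6, 2328 (NB), 3774 and 1878 CPM. Atf3, a stress-induced factor, was represented by 1 UMI in E15.5 and 16 in E17.5 cells against 7830 UMIs in NB cells, and was at 451 CPM in NB, 1806 and 610.0 CPM in the adult replicates. The libraries with high values were the 3 made from Liberase digests. Summed over the 23 genes of that list, a thinned cell held a median of 10 UMIs in each fetal library, 48 in NB cells, and 81 and 49 in the adult replicates. Stage and dissociation cannot be told apart for these genes or for the interferon genes above.

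The interferon genes were then read against that stress sum within the NB cells. Cells with a sum of at most 34 UMIs (658 cells) and of at least 64 UMIs (654 cells) were compared, a split chosen after the data were seen. Irf1 was at 352 CPM in the low and 783 CPM in the high class. Cxcl10 was at 1205 and 3295 CPM, and Gm4841 at 65.3 and 115 CPM. Lgals9 was at 281 and 266 CPM, Ifi27l2a at 2397 and 2223 CPM, and H2-K1 at 1044 and 1088 CPM, so these genes differed little with the sum. The low class reached 34 UMIs, whereas the 90th percentile of each fetal library was 15, so the split does not match the fetal cells in that sum.

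**Figure D2:**
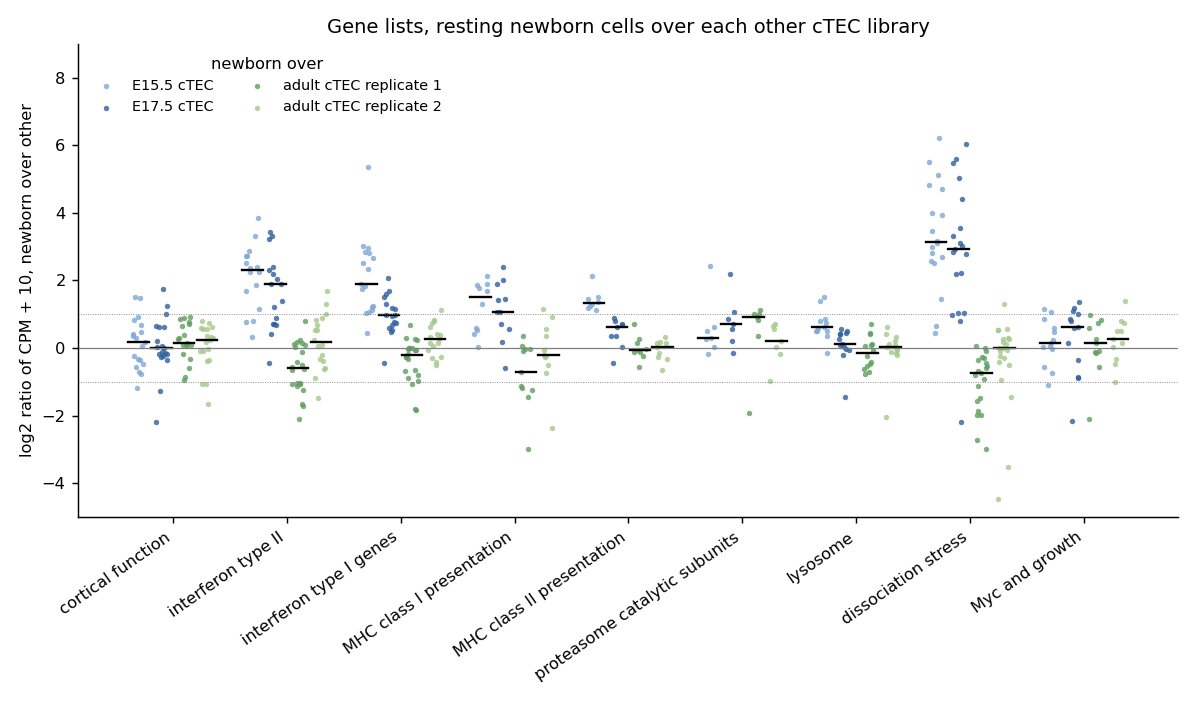
Log2 ratio of CPM + 10, resting NB cells over each other cTEC library, for the genes of 9 lists, with each point a gene at 50 CPM or more in either library and each bar the median. Interferon and dissociation stress genes lie mostly above 0 over the fetal libraries, but genes that reached 50 CPM in NB cells alone (8 in the type II interferon and 8 in the stress list) are among the points and enter those medians. Cortical function genes had a median of 0.19 over E15.5.

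Of 80 ribosomal protein genes tested, 10 were 2-fold lower in NB cells than in both fetal libraries, where 0.851% of all genes were. Against both adult replicates 13 of 81 were lower, where 3.01% of all genes were, and 0 were higher in either comparison. The part of the different gene lists in this was not tested. Other genes lower in NB cells than in fetal cells included Stmn2, a neuronal microtubule regulator, at 573, 202, 56.1 (NB), 1.56 and 1.53 CPM. Cdkn1c, an inhibitor of cyclin-dependent kinases, was at 94.6, 208, 39.2 (NB), 10.1 and 5.34 CPM, the NB cells again lying between fetal and adult cells. Against the adult replicates, 53 of 3255 genes (1.63%) were at least 2-fold higher in NB cells than in both and 98 (3.01%) were 2-fold lower. The adult replicates differed from each other at 493 of 3388 genes. The Myc and growth list had 1 of 13 genes 2-fold above both fetal libraries (Cdkn1b, which passed through NB cells alone) and 1 below (Cdkn1c), against 3.81% and 0.851% of all genes, and Myc itself was at 18.2, 18.2, 27.3 (NB), 31.2 and 44.2 CPM. Crabp2, a carrier of retinoic acid, was at 359, 176, 164 (NB), 5.45 and 6.10 CPM and led the genes higher in NB cells. Bex2 was at 204, 139, 171 (NB), 9.35 and 24.8 CPM. Among genes lower in NB cells, Ly6a, the Sca-1 antigen, was at 1.23, 12.7, 14.3 (NB), 494 and 228 CPM. S100a6, a calcium-binding protein, was at 10.1, 6.04, 31.3 (NB), 705 and 372 CPM. The actin gene Acta2 was at 0.941, 3.31, 11.2 (NB), 163 and 124 CPM, and the markers of mesenchymal cells summed to 334 and 238 CPM in the adult replicates against 25.1 CPM in NB cells. Their part in these ratios was not tested. The first adult replicate also carried medullary markers at 6054 CPM, against 430 CPM in NB cells.

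Within the NB cells, Tbata and Ccl25 were among the most variable genes. At 3000 UMIs per cell Tbata had a median of 11 UMIs, with a 10th percentile of 1, a 90th percentile of 34 and a maximum of 71. Ccl25 also had a median of 11 UMIs, from 1 to 27 between those percentiles and 78 at most. The variance of Tbata over its mean was 6.50 times that of genes of like mean, rank 3 of 4229 genes, and that of Ccl25 was 5.09 times, rank 7. Ctsl was at rank 6 with 5.22 times. Psmb11 and Prss16 varied less, at 1.70 and 2.167 times. Ccl21a, a medullary chemokine gene with near-identical copies whose reads cannot be assigned with certainty, was at rank 1 with 13.2 times. Only 43 of the 4229 genes reached a ratio of 2. Irf1, Gm4841 and Lgals9 had ratios of 1.63, 1.41 and 1.17 and medians of 1, 0 and 1 UMI per cell.

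Tbata and Ccl25 varied together. Over the 2613 thinned cells of the library, which share its depth and ambient RNA, the Pearson r of their log counts was 0.74. It was 0.50 at E15.5, 0.67 at E17.5, and 0.77 and 0.81 in the adult replicates. The genes most like Tbata in NB cells were Ccl25, Ctsl (0.64), Cstb (0.59), an inhibitor of cathepsins, Krt18 (0.57), a keratin of simple epithelia, and Isg20 (0.52), an exonuclease. Isg20 is also on the type I interferon list. Prss16 had an r of 0.53 with Ccl25 and 0.48 with Tbata. Psmb11 with Prss16 had an r of 0.35 in NB cells and 0.70 and 0.67 in the adult replicates.

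The sum of Irf1, Gm4841 and Lgals9 did not follow the sum of Tbata and Ccl25. Their r was -0.01 in NB cells, 0.15 at E15.5, 0.13 at E17.5, and 0.02 and 0.25 in the adult replicates. Over 4 classes of cells of about equal size, ranked from low to high in Tbata and Ccl25, the mean of the other sum was 2.83, 2.78, 2.82 and 2.58 UMIs per cell. Nor did those genes form a block among themselves, with an r of 0.16 for Irf1 with Gm4841, 0.01 for Irf1 with Lgals9 and 0.04 for Gm4841 with Lgals9. At such low counts a weak r is no evidence of independence. Irf1 was most like Cxcl10 (0.36), Junb (0.24), Jun (0.21), Socs3 (0.20) and Ier2 (0.20), and 4 of those 5 are genes of the stress list. Gm4841 was most like Cxcl10 (0.19) and Irf1. Lgals9 was most like Ifi27l2a (0.10) and Isg15 (0.10), both interferon genes.

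**Figure D3:**
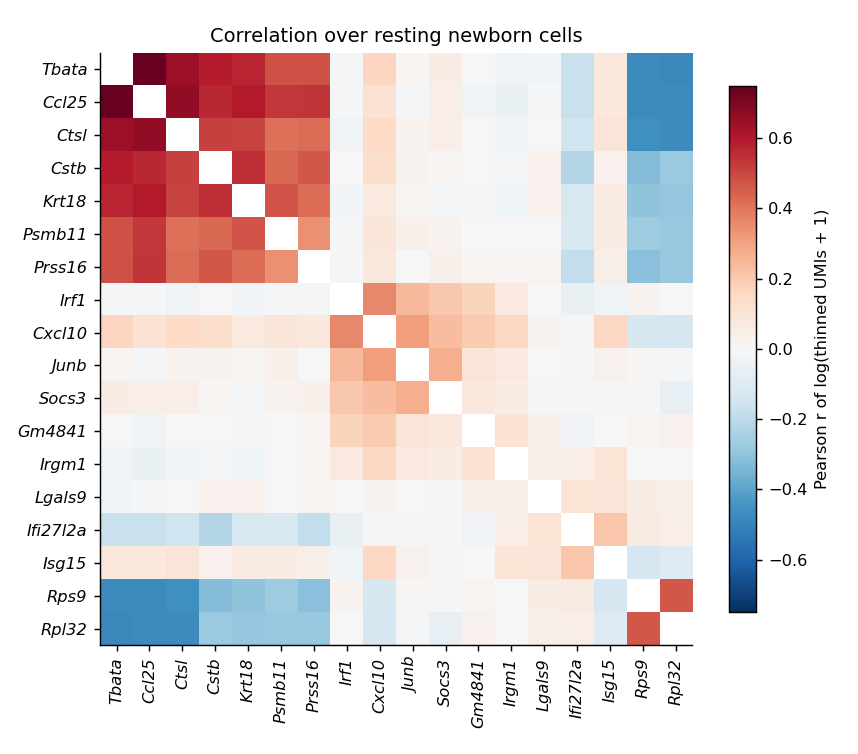
Pearson r of log thinned UMI counts over 2613 resting NB cells for 18 genes, named after their values were seen. Tbata, Ccl25, Ctsl, Cstb, Krt18, Psmb11 and Prss16 form a positive block, Rps9 and Rpl32 are opposed to it, and Irf1 is paired with Cxcl10 at 0.36.

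The genes opposed to Tbata were those of ribosomal proteins. Of the 50 genes with the lowest r to Tbata 44 encoded ribosomal proteins, and all 79 ribosomal protein genes measured had an r below 0, with a median of -0.30 against -0.01 over all genes. The r of the sum of Tbata and Ccl25 with the summed ribosomal protein UMIs was -0.69 in NB cells, -0.39 at E15.5, -0.52 at E17.5, and -0.40 and -0.48 in the adult replicates. In NB cells the mean ribosomal protein share was 18.9% in the lowest of the 4 classes by Tbata and Ccl25 and 16.4%, 14.4% and 12.1% in the following ones. Counts within a cell add to a fixed total after thinning, so some opposition is built in. Scaled back to each cell's own depth, the median number of ribosomal protein UMIs per NB cell was 1016 in the low and 815 in the high class, although the high class had more UMIs (median 6628 against 5300.0). The same order was found at E15.5 (1829 and 1679.8 UMIs) and at E17.5 (2974 and 2428 UMIs). That number was 638 and 629 in the first adult replicate, and in the second it was higher in the high class, at 1418 and 1558 UMIs.

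**Figure D4:**
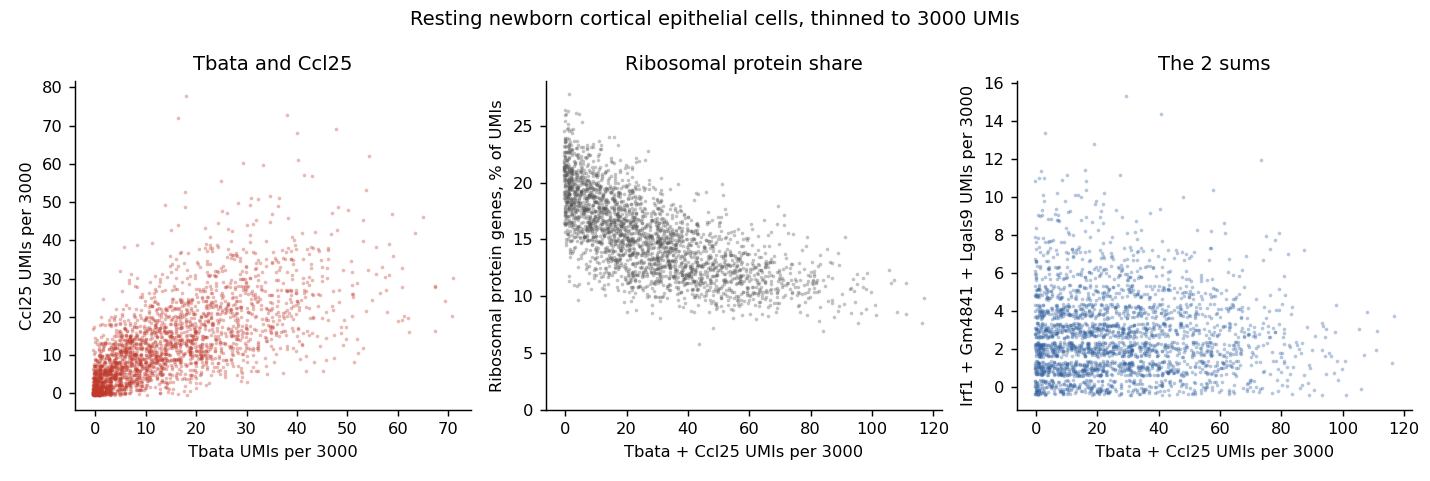
Each point is 1 of 2613 resting NB cells thinned to 3000 UMIs. The panels plot Ccl25 against Tbata UMIs, the ribosomal protein percentage of UMIs against the sum of Tbata and Ccl25, and the sum of Irf1, Gm4841 and Lgals9 against the same sum, with r of 0.74, -0.69 (on log counts) and -0.01.

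**Figure D5:**
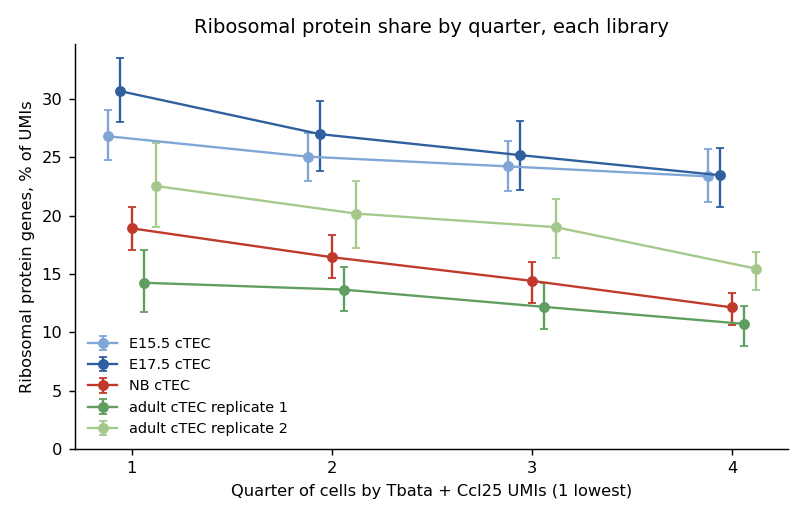
Mean ribosomal protein percentage of UMIs, with the range from the 25th to the 75th percentile of cells as bars, in 4 classes of cells ranked on Tbata and Ccl25 in each of 5 libraries. The mean was lower in the highest class than in the lowest in each of these libraries, from 18.9% to 12.1% in NB cells.

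Cells with at most 9 UMIs of Tbata and Ccl25 (662 cells) were compared with cells with at least 41 (661 cells). Of 3417 genes, 111 (3.25%) were at least 2-fold higher and 55 (1.61%) 2-fold lower in the high class. Since the classes are cut from a score, they are ends of a range and not cell types. Psmb11 was at 695 CPM in the low and 2019 CPM in the high class, and Prss16 at 2423 and 5508 CPM. Foxn1, the master regulator of TEC, was at 66.5 and 125 CPM. B2m was at 1159 and 2916 CPM, the only one of 10 class I genes at 2-fold, and 6 of those 10 had a ratio above 0. Psmb10 was at 1003 and 2177 CPM, and 2 of 7 proteasome subunits reached 2-fold. Irf1 was at 586 and 536 CPM, Gm4841 at 95.2 and 86.2 CPM, and Lgals9 at 255 and 238 CPM.

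Genes furthest apart in the high class included Fxyd2, a regulator of the sodium pump, at 10.1 and 547 CPM, Isg20 at 175 and 1249.6 CPM, and Cd83, a surface protein of cTEC needed for CD4 selection, at 106 and 553 CPM. Fxyd2 was also higher in the high class of each other library, by 0.93, 2.49, 4.35 and 4.87 on the log2 scale. Isg20 was the 1 gene of 18 on the type I interferon list that was 2-fold higher, where 3.25% of all genes were. Of those 18 genes 13 were above 0, with a median log2 ratio of 0.21 against -0.06 over all genes. The basal keratin Krt5 was at 26.2 and 160.4 CPM, but its log2 ratio was 1.22 at E17.5, -1.01 at E15.5 and -0.15 and -1.22 in the adult replicates. In the low class Id1, an inhibitor of differentiation factors, was at 90.1 CPM against 4.03, Sparc, a matrix protein, at 340.4 against 64.5, and Stmn1, a microtubule regulator, at 353 against 106 CPM. Id1 and Sparc were lower in the high class in all 5 libraries. Markers of other cell types moved with the same split. The mesenchymal gene Dcn was at 52.9 CPM in the low and 14.1 CPM in the high class of NB cells, and at -2.54 and -4.26 on the log2 scale in the adult replicates. The low class held more of 4 globin genes at E17.5 (median -4.21), of the parathyroid genes Pth and Chga at E15.5 (median -4.06), and of medullary genes in the adult replicates (medians -2.00 and -2.11). In NB cells the medullary genes Krt5 and Ccl21a were instead higher in the high class, Ccl21a at 118 and 271 CPM. The part of such cells or RNA in this split, and in the r of Tbata with Ccl25, was not tested.

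The cells were also split by Irf1, Gm4841 and Lgals9. That sum had a median of 2 UMIs against 22 for the sum of Tbata and Ccl25, so counting error enters its classes far more and the numbers of genes in the 2 splits cannot be compared. Cells with at most 1 UMI (852 cells) and with at least 4 UMIs (800 cells) differed 2-fold at 2 of 3236 genes (0.0618%), the chemokine genes Cxcl10 and Cxcl1, both higher in the high class, and at 0 genes in the other direction. No gene was called with 2000 UMIs per cell or with larger classes, where the log2 ratio of Cxcl10 was 0.86 and 0.74. Cxcl10 was at 1512 CPM in the low and 3046 CPM in the high class, and Cxcl1, which was named after its values were seen, at 73.6 and 158.8 CPM. Below 2-fold on the scale of CPM + 10, Gbp5, an interferon-induced GTPase, was at 26.2 and 57.5 CPM, and Socs1 at 86.1 and 159.6 CPM. Of 18 genes of the dissociation stress list 0 were at 2-fold, but 16 were above 0 and the median log2 ratio was 0.42. The type II interferon list without the genes of the sum had 1 of 15 genes at 2-fold, 13 above 0 and a median of 0.53. Over all genes the median was -0.02.

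The promoters of 4 genes are shown because Tbata, Ccl25 and Psmb11 varied together and Cxcl10 was the gene most like Irf1. Each line holds the 250 bases before the RefSeq start on GRCm38.p6, 5′ to 3′ on the gene's strand, and capitals mark the motif letters found. The windows were Tbata at chr10:61171714-61171963 (+), Ccl25 at chr8:4324960-4325209 (+), Psmb11 at chr14:54625060-54625309 (+) and Cxcl10 at chr5:92348890-92349139 (-). The Psmb11 window lay inside the longer gene model of GENCODE, which starts further upstream. RefSeq held 2 entries for Ccl25, of which the one starting furthest upstream was used. Which start cTEC use was not tested.
Tbata: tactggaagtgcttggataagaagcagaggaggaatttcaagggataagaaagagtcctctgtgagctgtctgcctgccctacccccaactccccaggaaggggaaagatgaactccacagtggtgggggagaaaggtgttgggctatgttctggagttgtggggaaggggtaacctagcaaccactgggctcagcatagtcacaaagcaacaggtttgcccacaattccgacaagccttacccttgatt
Ccl25: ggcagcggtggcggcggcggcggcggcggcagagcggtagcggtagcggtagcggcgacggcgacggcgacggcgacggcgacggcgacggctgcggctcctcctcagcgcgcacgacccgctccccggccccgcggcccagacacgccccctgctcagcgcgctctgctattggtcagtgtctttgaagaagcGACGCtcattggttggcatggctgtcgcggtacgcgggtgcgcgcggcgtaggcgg
Psmb11: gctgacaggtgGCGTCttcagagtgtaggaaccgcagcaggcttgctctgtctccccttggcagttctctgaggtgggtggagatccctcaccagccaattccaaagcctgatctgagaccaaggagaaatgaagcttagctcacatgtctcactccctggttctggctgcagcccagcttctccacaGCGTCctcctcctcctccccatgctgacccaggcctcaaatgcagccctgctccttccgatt
Cxcl10: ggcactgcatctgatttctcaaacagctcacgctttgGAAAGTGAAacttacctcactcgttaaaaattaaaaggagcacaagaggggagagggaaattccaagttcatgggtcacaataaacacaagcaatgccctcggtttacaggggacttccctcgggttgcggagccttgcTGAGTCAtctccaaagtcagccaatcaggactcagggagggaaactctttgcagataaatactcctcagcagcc

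Motifs were searched on both strands. GACGC, the core bound by Foxn1, occurred in 22.6% of 32851 promoters, in the Ccl25 window once and in the Psmb11 window as GCGTC on the other strand at 239 to 235 and 62 to 58 bases before the start. GAAANNGAA, found in interferon response elements, occurred in 7.13% of promoters and in the Cxcl10 window at 213 to 205 bases before the start. TGANTCA, the AP-1 letters bound by Fos and Jun proteins, occurred in 6.75% of promoters and in the Cxcl10 window at 74 to 68. GGGANTTTC, the start of a kappaB letter pattern, occurred in 0.941% of promoters and in none of the 4 windows. Other kappaB spellings were not searched, so this does not show that a window lacks a kappaB site. The Cxcl10 window holds gggaaattcc and gggacttccc, which the searched letters do not match. The Tbata window held none of these letters. Such matches describe the letters only.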

How the data were processed

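Single-cell 3′ libraries of sorted mouse TEC were sequenced by the authors, and Cell Ranger 2.0.1 with STAR 2.5.1b and bcl2fastq 2.17 are named in the submitters' processing notes, while the headers of the later matrices name 3.0.1. The deposited values are whole-number UMI counts per gene and cell, not normalized. UMI counts of the 27514 genes found in both gene lists were summed over resting cells, scaled to CPM and compared as log2 of CPM + 10 where either library reached 50 CPM, with 2-fold as the call. For variation and correlation, cells were thinned to 3000 UMIs and logged. Variance over mean was divided by the median of genes of like mean (50 on each side). Named genes were the 10 with the largest ratios in each direction that held in both fetal libraries or both adult replicates, the 15 most variable, the 5 most alike, and the genes of the label, of which the text gives a selection. Members and lists were chosen with earlier results of these data known, and the markers of the label are no independent evidence. Ccl21a and Gbp6 each stand on several rows of close copies. The scripts were tested on simulated data, and were run with Python 3.11.15, numpy 2.4.6, scipy 1.17.1, scanpy 1.11.5, matplotlib 3.10.9 and edgeR 4.0.16 (TMM scaling only) in R 4.3.3. Promoters came from RefSeq (6 of 8 genes asked were found).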

Additional observations from a re-analysis of the deposited data

How the results depend on the processing

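No paired analysis was possible because NB cells came from 1 library, and no result came from a test. That library shared its data set with the E15.5 and first adult libraries, and its dissociation with both adult replicates. The number of resting cells was 162 when the S and G2M lists replaced Mki67 and Top2a. The r of Tbata with Ccl25 was then 0.65, and 0.71 after thinning to 2000 UMIs. That of Irf1 with Lgals9, 0.01 as reported, was 0.17 with the S and G2M lists and 0.06 without thinning. With a minimum of 10 CPM, 908 genes differed 2-fold from the first adult replicate, 747 from the second and 262 from both, against 493, 455 and 151. Leaving out an adult replicate gave 455 to 493 genes in place of 151. Classes that each held more cells gave 98 genes for the Tbata and Ccl25 split in place of 166, and 0 genes in place of 2 for the other split, as did 2000 UMIs. TMM scaling changed the share of calls that were higher in NB cells from 59.3 to 34.1% against E17.5, from 28.2 to 48.8% against the first adult replicate and from 52.3 to 38.1% against the second. TMM scaling also turned the sign of 4 ratios that were near 0, namely those of Prss16 over E17.5 (0.03 to -0.25) and over the second adult replicate (0.11 to -0.02), Tbata over the first adult replicate (-0.03 to 0.14) and Irf1 over the second (0.10 to -0.03). It left 96 of the 121 genes higher than in both fetal libraries. Correlations that turned sign under an alternative were between -0.02 and 0.04 as reported, and at most 0.10 after it. No printed ratio of 2-fold or more among the label genes and Irf1, Gm4841 and Lgals9 turned sign. Leaving out the 65 cells with Xist and a Y-linked transcript was added after the data were seen. Removal of doublets by Scrublet gave no value. The causes were not tested. The first adult replicate gave 268 resting cells and 213 thinned ones.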

Other observations

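A small set of NB cells carried Ccl21a. At least 5 UMIs were found in 162 members (5.99%, 5.12 to 6.95%). Against the 2345 members with none, they held Krt5 at 368 against 65.6 CPM, Krt14 at 88.3 against 30.5 CPM, and the matrix protein gene Mgp at 144 against 31.9 CPM. Psmb11 was at 1177 against 1466 CPM and Tbata at 7756 against 4762 CPM, and Aire at 0 CPM in those cells. The reads of Ccl21a cannot be told apart from those of its close copies.

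Between members with Xist only and with a Y-linked transcript only, 4 of 3212 genes differed 2-fold. Of these, 3 (Xist, Ddx3y and Eif2s3y) defined the classes and had to differ, and the other, named after its values were seen, was PISD at 56.7 and 14.1 CPM. The r of Tbata with Fos was -0.03 in NB cells and -0.34 and -0.38 in the adult replicates, where Fos was lower in cells high in Tbata and Ccl25. In those replicates the cells low in Tbata and Ccl25 also held more of the medullary genes (median log2 ratio of high over low cells -2.00 and -2.11), of claudin genes (-3.86 and -2.92), of the myeloid gene Lyz2 (-4.18 and -2.59) and of the mesenchymal gene Dcn (-2.54 and -4.26), whose part in the r was not tested.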
